A study of Mus musculus with 2 samples.

Results

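Genes of the actin turnover machinery were followed in cultured dentate gyrus (DG) astrocytes of wild type (WT) and β-arrestin 1 knockout (β-arr1 KO) mice. They encode the cytoplasmic actins (Actb, Actg1), the ADF/cofilins (Cfl1, Cfl2, Dstn), the LIM kinases (Limk1, Limk2) and the Slingshot phosphatases (Ssh1, Ssh2, Ssh3). The 10 genes were found by their symbols among the 16302 symbols listed in either library, and all 10 were listed in both. The set was chosen by gene family with the FPKM values of these libraries already known, that of Ssh2 among them, so the values below are a description and no test was made of them.

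Both groups were mice of the C57BL/6 strain, either wildtype or Beta-arr1 knockout, the latter without a functional Arrb1 gene in any cell of the body. The animals came from heterozygous crosses or from WT and KO lines bred apart from each other. Astrocytes were grown from adult DG in medium with serum and shaken to remove loosely attached neurons and oligodendrocyte progenitors, and total RNA of the cultures was sequenced. A single library was made for each genotype, so no error between mice or cultures could be computed. Samples were collected from several mice per genotype, but how they were combined in a library, and their exact age, were not given in the sources used here.

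Actin filaments grow by addition of actin monomers and are cut and taken apart by cofilin and its relatives cofilin 2 and destrin. LIM kinases put a phosphate on the serine near the start of these proteins, which keeps them off the filament. Slingshot phosphatases and chronophin take the phosphate off again. LIM kinases are switched on by ROCK and PAK kinases. β-arrestins are known as scaffolds that bring cofilin together with its phosphatase and with LIM kinase downstream of some receptors. In astrocytes, actin turnover shapes the fine processes and the flattened form of cells in culture.

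The target of this cycle could be read in the coding sequences of the 3 ADF/cofilins. The first 30 coding bases are shown here with the third codon, which encodes the phosphorylated serine, in capitals.
Cfl1: atggccTCTggtgtggctgtctctgatggt
Cfl2: atggcaTCTggagttacagtgaatgatgaa
Dstn: atggccTCAggagttcaggttgcggatgaa
The serine codon was TCT in Cfl1 and Cfl2 and TCA in Dstn. Over their aligned coding bases, Cfl1 shared 71.9% of bases with Cfl2 and 72.6% with Dstn, and the longest identical run between any pair of them was 20 bases. Reads of 100 bases from the coding parts can therefore tell these genes from each other.

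The cytoplasmic actins are closer to each other. Their first 60 coding bases are shown with the 9 bases that differ in capitals.
Actb: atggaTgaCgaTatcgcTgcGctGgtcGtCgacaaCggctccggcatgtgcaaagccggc
Actg1: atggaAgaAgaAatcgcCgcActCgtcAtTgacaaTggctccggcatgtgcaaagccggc
Over the whole coding sequence of 1128 bases, Actb and Actg1 differed at 128 positions (88.7% identity), and no identical run was longer than 62 bases. Actg1 had 6 further copies in the genome that covered most of its coding sequence, and 91.9% of its 1029 windows of 100 coding bases were found exactly elsewhere. For Actb this share was 1.94%, for Cfl1 1.54% and for the other 7 genes 0. The Actg1 value therefore depended on how reads with several matches were divided.

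Levels are given in FPKM (fragments per kilobase of transcript, scaled to the mapped fragments of the library), so levels of different genes can be compared within a library. In the WT library, the order from highest to lowest was Actb, Cfl1, Actg1, Dstn, Cfl2, Limk2, Limk1, Ssh3, Ssh1 and Ssh2. In the β-arr1 KO library, Ssh2 moved from the last place to the fifth, between Dstn and Cfl2, and the order of the other 9 genes was the same.

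**Figure D1:**
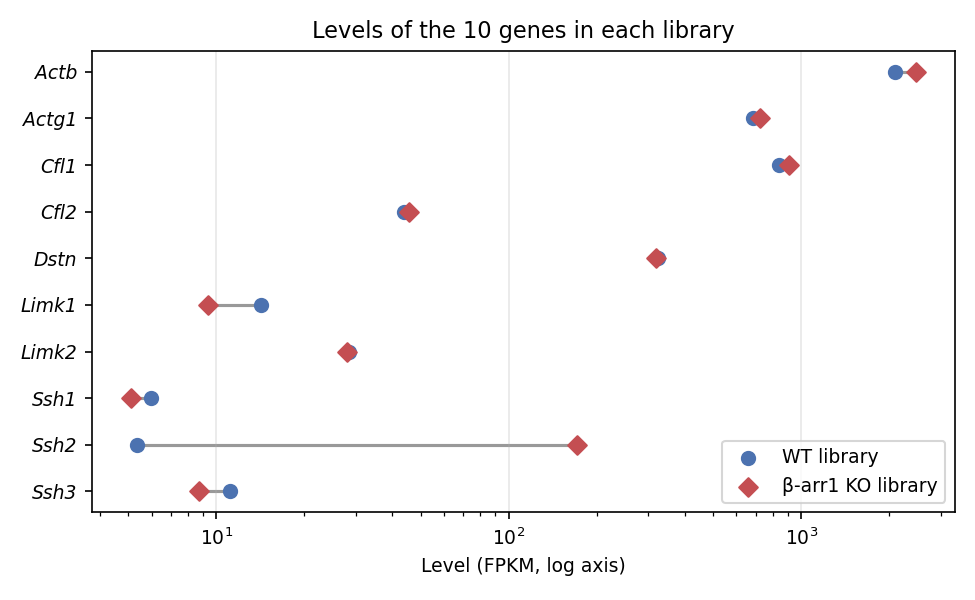
Level of each gene in the WT library (blue circles) and the β-arr1 KO library (red diamonds), in FPKM on a log axis. The points of 8 genes lie close together, Limk1 is lower in KO at 9.38 against 14.2 FPKM, and Ssh2 moves from 5.36 to 171 FPKM.

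A gene was counted as changed when its β-arr1 KO vs. WT ratio exceeded 3/2 or fell short of 2/3, the limits of the study. Among all 12646 genes that reached 1 FPKM in WT, in KO or in both, 17.8% were past these limits, 9.56% above 3/2 and 8.28% below 2/3. Of the 12171 among them that both libraries listed, 14.6% were past the limits. The study reported a smaller share past the same limits, over its own set of analysed genes. Of the 10 genes described here, Ssh2 was above 3/2 and Limk1 was below 2/3. The other 8 genes had ratios between 0.782 and 1.18. The median log2 ratio was 0.02 over the 10 genes and 0.02 over the 12171 analysed genes that both libraries listed. In bulk RNA, a different number of cells of a type and a different level per cell cannot be told apart. A 95% interval of counting error (exact Clopper-Pearson, on estimated fragments) was computed for each ratio, and it left out 1 for 7 of the 10 genes. Such an interval says nothing of the spread between cultures, and it is too narrow where cells express a shorter transcript than the longest one in the annotation.

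**Figure D2:**
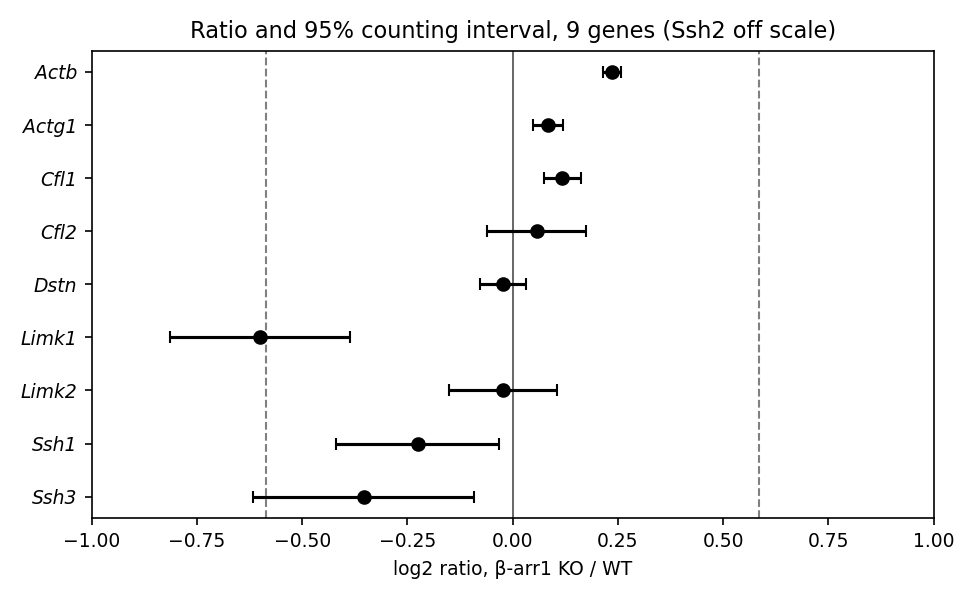
Log2 ratio of β-arr1 KO vs. WT for 9 genes (points) with the 95% interval of counting error (bars). Dashed lines mark the limits 2/3 and 3/2, and Ssh2, at a log2 ratio of 4.998, is off the scale. Limk1, at -0.60, lies beside the lower limit, and its interval crosses it.

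Actb (NCBI gene 11461), which encodes β-actin, the main actin of most cells outside muscle, was at 2090.0 FPKM in WT, against 2461 FPKM in β-arr1 KO. The ratio was 1.18, with an interval of 1.16 to 1.19. It ranked 14 from the highest gene in WT and 7 in KO. The Actb row lay on chromosome 5 (mm9) in both tables, but it began at 143663595 in WT and 1200 bases later in KO. Actb lies on the minus strand, and its annotated 3′ end is at 143664794, so the WT row reached 1199 bases past the end of the gene. Whether this changed the scaling to length was not tested.

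Actg1 (NCBI gene 11465), the gene of γ-actin, was at 684 FPKM in WT compared with 725 FPKM in KO, with a ratio of 1.06 and an interval of 1.03 to 1.09. Its row had the same bounds in both tables, from 120207004 to 120209798 on chromosome 11. Actb exceeded Actg1 by a factor of 3.05 in WT and 3.39 in KO. Actb made up 75.3% of the summed level of the cytoplasmic actins in WT and 77.2% in KO. The summed level was 2774 FPKM and 3186 FPKM.

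Cfl1 (NCBI gene 12631), which encodes the cofilin of non-muscle cells, was at 837 (WT) and 908 FPKM (KO). The ratio was 1.09, with an interval of 1.05 to 1.12. The row ran from 5474690 to 5494031 on chromosome 19 in both tables, while the annotated Cfl1 gene begins at 5490485, which is 15795 bases further in. The stretch in front of Cfl1 holds Efemp2 and Mus81. Mus81, a DNA repair nuclease gene, had a row of its own, at 10.8 FPKM in WT against 12.5 FPKM in KO, and Efemp2 was listed in neither table. The Cfl1 value could therefore include fragments of Efemp2, a gene of the elastic fibre matrix, and their number was not tested.

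Dstn (NCBI gene 56431) encodes destrin, also called ADF, and lies on chromosome 2 from 143741067 to 143769060. It was at 323 FPKM in WT compared with 318 FPKM in KO, and the interval of its ratio of 0.985, from 0.948 to 1.02, included 1. Cfl2 (NCBI gene 12632), the cofilin best known from muscle, was at 44.0 (WT) and 45.7 FPKM (KO), a ratio of 1.04 (interval, 0.959 to 1.13). The Cfl2 row, on chromosome 12 from 55959806 to 55963888 in WT, was 24 bases shorter at one end in KO. No difference of Dstn or Cfl2 was detectable at this depth.

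The makeup of the ADF/cofilins was similar in the libraries. Cfl1 took 69.5% of their summed level in WT and 71.4% in KO, Dstn 26.86% and 25.03%, and Cfl2 3.653% and 3.595%. The summed level was 1204 FPKM in WT against 1272 FPKM in KO, a ratio of 1.06. The cytoplasmic actins together stood at 2.30 times the ADF/cofilins in WT and 2.50 times in KO.

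Limk1 (NCBI gene 16885), on chromosome 5 from 135131909 to 135164460 in both tables, was at 14.2 FPKM in WT against 9.38 FPKM in KO. The ratio of 0.660 lay just below 2/3, or -0.60 on the log2 scale. With an estimated 448 and 304 fragments, counting error gave an interval of 0.569 to 0.765, which left out 1 and included 2/3. With 1 FPKM added to both values the ratio was 0.682, inside the limits. Of the genes that lie next to Limk1, Eln, the elastin gene, was at 109 FPKM in WT compared with 25.5 FPKM in KO, and Eif4h, a translation initiation factor gene, was at 114 and 97.6 FPKM.

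Limk2 (NCBI gene 16886), the second LIM kinase, was at 28.5 (WT) and 28.0 FPKM (KO). The ratio was 0.984, the interval of 0.901 to 1.08 included 1, and the row had the same bounds in both tables, from 3243300 to 3309238 on chromosome 11. Limk2 was the higher of the LIM kinases in each library, by a factor of 2.003 in WT and 2.99 in KO. The share of Limk1 in their summed level was 33.3% in WT and 25.1% in KO.

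Ssh1 (NCBI gene 231637), the Slingshot that acts on cofilin at the leading edge of moving cells, was at 5.96 FPKM in WT against 5.10 FPKM in KO. The ratio was 0.855, with an interval of 0.748 to 0.978. The WT row ran from 114387243 to 114443794 on chromosome 5, and the KO row began 3374 bases later, at the 3′ side of this minus strand gene. Ssh3 (NCBI gene 245857), the third Slingshot, was at 11.2 FPKM in WT compared with 8.73 FPKM in KO, a ratio of 0.782. Its interval of 0.652 to 0.938 left out 1 and included 2/3, and the KO row ended 274 bases later than the WT row, which ran from 4261668 to 4269239 on chromosome 19. In neither gene do these intervals account for the differing bounds.

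Ssh2 (NCBI gene 237860), the second Slingshot, was at 5.36 FPKM in the WT library against 171 FPKM in the β-arr1 KO library. The ratio was 32.0, a log2 ratio of 4.998, with a counting interval of 29.1 to 35.1. Its rank from the highest gene was 8625 in WT and 296 in KO. The row ran from 77029927 to 77273721 on chromosome 11 in both tables, so the difference did not come with a change of bounds. Among the 12171 genes listed in both libraries and at 1 FPKM or more in one, 5 had a higher ratio, and among the 8424 genes with at least 5 FPKM in both libraries none did. Those 5 genes were Trim72, Actc1, Actn2, Tmem8c and Mylpf, all of them genes of skeletal or cardiac muscle. Their WT levels were between 0.0372 and 1.08 FPKM, below that of Ssh2, so the floor of 5 FPKM in both libraries left them out. Of 14 markers of skeletal and cardiac muscle, all 9 with at least 1 FPKM in one library were above 3/2 in KO. Of these 9, only Acta1, Tnnt2 and Tnnc1 reached 1 FPKM in WT, with ratios of 4.78, 9.86 and 10.4. The others passed this floor through KO alone, which favours a high ratio. The whole list summed to 11.6 FPKM in WT against 138 FPKM in KO. Myh8, Tnnc2 and Myod1 had no row in WT, Myh3 had none in KO, and Myf5 was listed in neither library. The summed level of these markers rose along with Ssh2, and their part in its value was not tested.

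**Figure D3:**
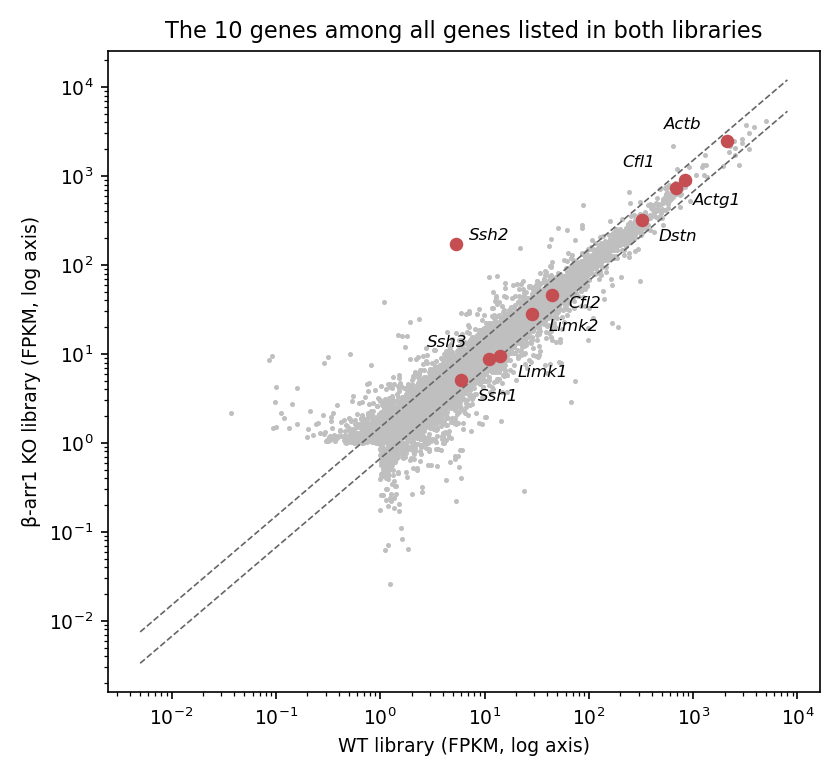
Level in the β-arr1 KO library against level in the WT library for all genes with at least 1 FPKM in one library and listed in both (grey), in FPKM on log axes, with the 10 genes in red and the limits 2/3 and 3/2 as dashed lines. Ssh2 stands far above the band of the other genes at its WT level, and Limk1 lies on the lower line.

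The number of fragments behind the Ssh2 value depended on the transcript. With the longest annotated transcript, of 9178 bases, the values correspond to an estimated 460 fragments in WT and 15146 in KO. With the shortest, of 458 bases, they correspond to 15 and 484 fragments. The annotation holds 6 Ssh2 transcripts, and the deposited value is 1 number per gene, so which of them carried the KO level could not be seen.

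The genes past the end of Ssh2 had ratios between the limits. Coro6, which begins just past the end of Ssh2 and encodes a coronin, was at 6.46 (WT) and 6.30 FPKM (KO), Ankrd13b at 9.88 and 9.84 FPKM, and Git1 at 26.2 and 29.9 FPKM. Efcab5, in front of Ssh2, was at 0.210 and 0.0910 FPKM, too low to be analysed. No other row of either table overlapped the Ssh2 row. In the annotation, the small nucleolar RNA SNORD86 and the pseudogene Gm12346 lie inside its bounds.

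Gm12346 is a copy of the coding sequence of Hsp90aa1, the inducible cytosolic HSP90 chaperone. It lies from 77106946 to 77109400, on the same strand as Ssh2 and within an intron of 49226 bases, and overlaps no Ssh2 exon. A stretch of 1381 bases was 99.5% identical to Hsp90aa1, and a second stretch of 834 bases was also 99.5% identical. The likeness is shown for 100 bases of NCBIM37 on the plus strand, chr11:77107151-77107250, beside coding bases 154 to 253 of Hsp90aa1, with the 3 differences in capitals.
Hsp90aa1: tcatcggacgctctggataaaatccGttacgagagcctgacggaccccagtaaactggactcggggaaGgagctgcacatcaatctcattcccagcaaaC
Copy in Ssh2: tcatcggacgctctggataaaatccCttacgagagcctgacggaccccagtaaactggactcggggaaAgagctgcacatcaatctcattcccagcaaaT
Of 2103 windows of 100 coding bases of Hsp90aa1, 69.8% were found exactly elsewhere in the genome. Hsp90aa1 itself was at 118 FPKM in WT against 96.4 FPKM in KO. The nearest Ssh2 exon was 15270 bases from the copy. The part of this copy in the Ssh2 value was not tested.

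**Figure D4:**
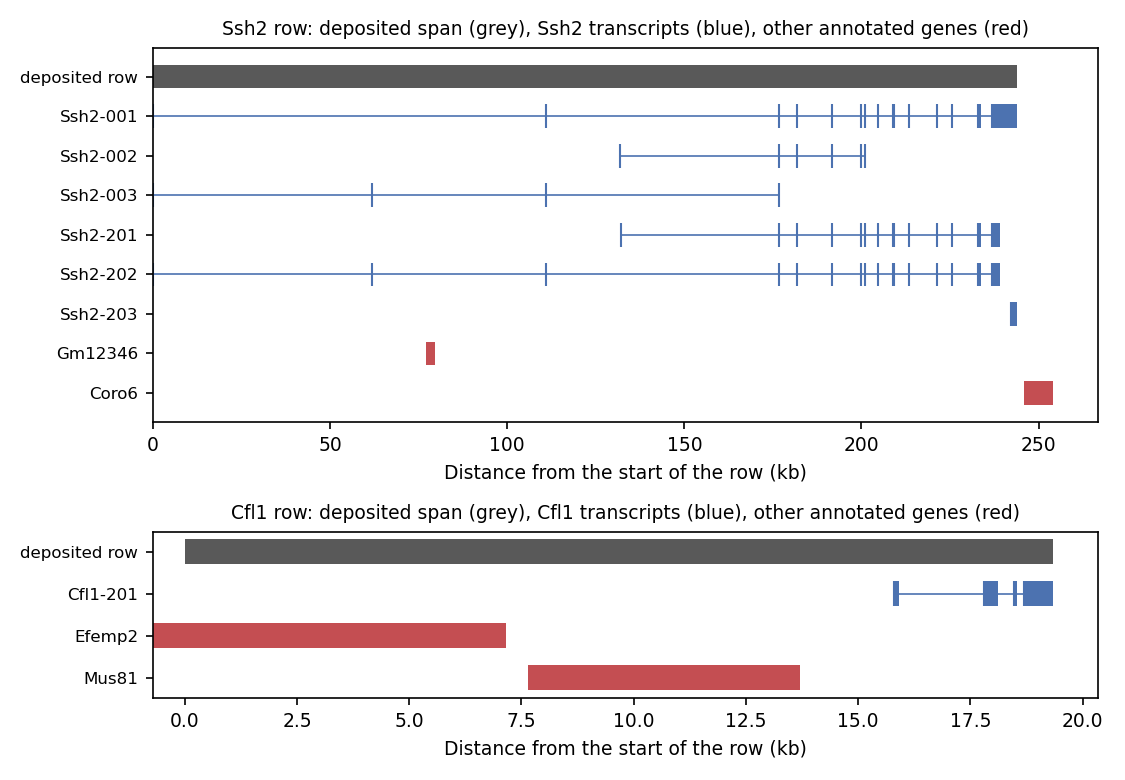
The deposited rows (grey), the annotated transcripts of each gene (blue, exons as blocks) and other annotated genes (red) at Ssh2 (top) and Cfl1 (bottom), by distance in kb from the start of the row. The Hsp90aa1 copy Gm12346 lies between exons of Ssh2, and the Cfl1 row spans Mus81 and part of Efemp2 in front of the Cfl1 exons.

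With Ssh2 included, the summed level of the Slingshots was 22.5 FPKM in WT against 185 FPKM in KO, a ratio of 8.23. Ssh2 made up 23.8% of it in WT and 92.5% in KO. Without Ssh2 the sum was 17.1 FPKM and 13.8 FPKM, a ratio of 0.808. The LIM kinases together stood at 1.90 times the 3 Slingshots in WT and 0.202 times in KO. Against Ssh1 and Ssh3 alone they stood at 2.49 times in WT and 2.70 times in KO, so the turn of this balance rested on Ssh2.

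**Figure D5:**
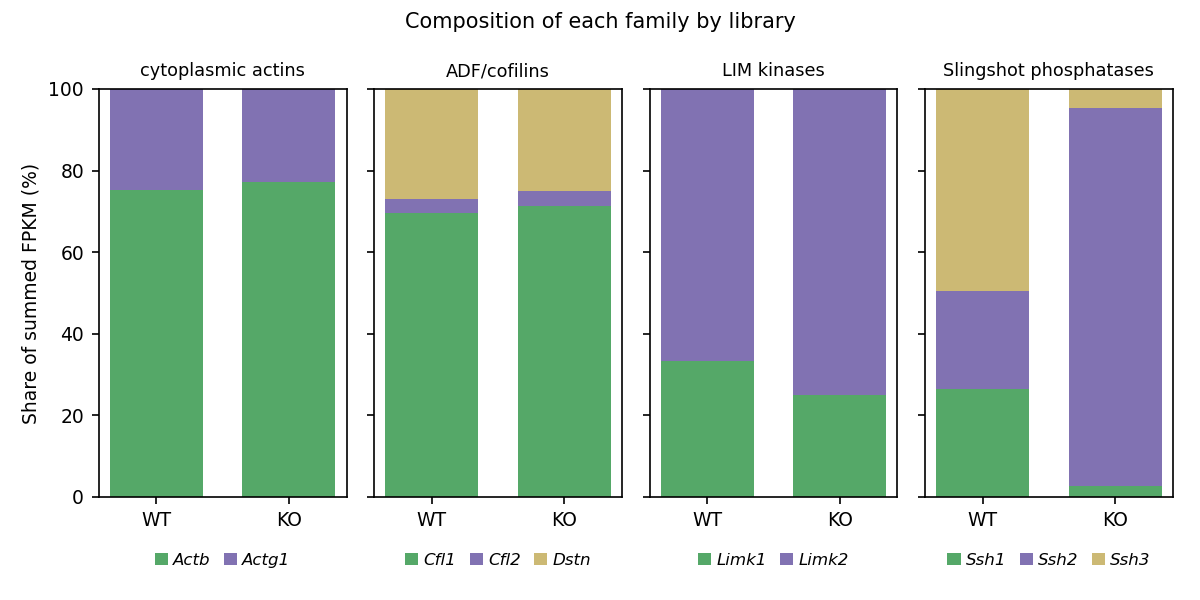
Share of each gene in the summed FPKM of its family (percent) in the WT and β-arr1 KO libraries. The makeup is similar for the actins and the ADF/cofilins, Limk1 is 33.3% of the LIM kinases in WT and 25.1% in KO, and Ssh2 is 23.8% of the Slingshots in WT and 92.5% in KO.

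The neighbourhood of the cycle was described by 6 lists of 92 genes, of which 85 reached 1 FPKM in WT or KO. Of these, 8 were above 3/2, 3 were below 2/3 and 74 lay between, so 12.9% were past the limits. The median log2 ratio of the 85 genes was 0.04. Over all genes the share past the limits was 17.8%, but it varied with the floor. It came to 1179 of 9397 genes with the floor raised to 5 FPKM, and 1372 of 11622 with 1 FPKM in WT and in KO. The lists were not matched to all genes by level, so whether they changed less was not tested. The lists were chosen with earlier results of these data known.

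Among 23 cofilin phosphatases and cofactors, 2 were above 3/2 and 1 was below 2/3. Pdxp, which encodes chronophin, the other main cofilin phosphatase, was at 2.66 FPKM in WT compared with 2.95 FPKM in KO. The genes of the 14-3-3 proteins that bind Slingshot lay between the limits except Sfn, which had no row in WT and was at 12.8 FPKM in KO. In WT, a row of Zdhhc18 at 37.4 FPKM covered the place of Sfn. Ywhae, also a 14-3-3 gene, was the highest of the list, at 294 and 351 FPKM. Gmfb, a cofilin relative that acts on Arp2/3 branches, was at 44.0 (WT) and 107 FPKM (KO). The KO row of Gmfb spanned Cnih, which WT listed apart at 60.1 FPKM, and the sum of both was 104 FPKM in WT against 107 FPKM in KO. The coronin gene Coro2a was at 1.61 FPKM in WT against 0.850 FPKM in KO.

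Of further genes that act on this cycle, Rac2, Prkd1 and Tesk2 had ratios past the limits. Rac2, the Rac of blood cells and microglia, was at 42.9 FPKM in WT compared with 7.80 FPKM in KO, a ratio of 0.182, while Rac1 was at 147 and 154 FPKM. Of 9 microglia markers, Cd68 was below 2/3, at 185 and 119 FPKM, and 8 lay between the limits. Of those 8, C1qa was at 246 and 181 FPKM, Csf1r at 146 and 135 FPKM and Cx3cr1 at 24.8 and 25.9 FPKM. The 9 markers summed to 673 FPKM in WT against 522 FPKM in KO, with a median log2 ratio of -0.20. Their part in the Rac2 value was not tested. Prkd1, a protein kinase D gene whose product acts on Slingshot, was at 4.86 and 7.74 FPKM. Tesk2, a testis kinase that also phosphorylates cofilin, was at 5.21 (WT) and 2.35 FPKM (KO). Its KO row was shorter, and a row of Ccdc163 at 3.19 FPKM lay beside it. Toe1, which overlaps the end of this place, had a row of its own in both libraries, at 6.59 and 5.51 FPKM. With all rows that overlap this place summed, Toe1 included, the levels were 11.8 and 11.1 FPKM, a ratio of 0.936 inside the limits.

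The genes that supply, cap and nucleate actin mostly lay between the limits, as did 10390 of all 12646 analysed genes. Of 13 analysed genes of monomer binding and capping, only Capza1 was past them, at 49.2 FPKM in WT with no row in KO, and no KO row covered its place. Tmsb4x, encoding the monomer buffer thymosin β4, was the highest of all genes in these 6 lists, at 3805 and 3593 FPKM. Of 23 analysed genes of the Arp2/3 complex and its activators, Actr3b alone was past the limits, at 1.35 and 2.18 FPKM. Its counting interval of 0.900 to 2.97 included 1. Arpc2 was the highest of this list at 271 and 245 FPKM. Of 15 formin and Ena/VASP genes, Daam2 (8.52 and 14.7 FPKM) and Fmn2 (1.78 and 2.81 FPKM) were above 3/2. Vasp was the highest of these at 57.5 and 63.1 FPKM.

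The muscle actins stood apart from the cytoplasmic ones. Acta2, the smooth muscle actin, was at 2478 FPKM in WT against 2469 FPKM in KO, so it was 1.19 times Actb in WT and 1.00 times in KO. Actg2, the other smooth muscle actin, was at 84.0 FPKM in WT compared with 34.9 FPKM in KO, a ratio of 0.416. Acta1, the skeletal actin, was at 5.95 and 28.4 FPKM, a ratio of 4.78. Actc1, the cardiac actin, was at 0.0860 FPKM in WT, which is an estimated 1 fragment, and at 8.51 FPKM in KO. Among 7 genes of SRF, the transcription factor that follows the actin monomer pool, and its cofactors, Myocd alone was past the limits, at 1.21 and 2.12 FPKM. Srf was at 20.6 and 19.9 FPKM, and Elk3 was the highest of this list at 24.0 and 24.5 FPKM.

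SRF binds the CArG box, and the promoters of the 10 genes were searched for it on both strands, from 250 bases before to 50 bases after the start (RefSeq, GRCm38.p6). Of 14 promoters of 9 genes, only that of Actg1 held the motif, 90 bases before the start, in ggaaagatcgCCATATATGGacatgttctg, where capitals mark the box. Of all 32851 promoters, 1.63% held it. Actb had no entry in this set. The match describes sequence, and no binding was measured.

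For each of the 10 genes, the 2 genes of the pathway with the nearest log2 ratio were found among 107 candidates. With 2 libraries this rests on 1 ratio per gene. Nearest to Cfl1 at a log2 ratio of 0.12 were Cap1 and Pfn2, both also at 0.12. Nearest to Limk1 at -0.60 was Fmnl1 at -0.55. Ssh2 at 4.998 had no near gene, as Actc1 was at 6.63 and Acta1 at 2.26.

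Several facts of the libraries touch these values. Arrb1 was at 7.62 (WT) and 2.72 FPKM (KO), a ratio of 0.358. All 10 astrocyte markers were listed in both, with Gfap at 189 and 192 FPKM and a sum of 396 and 420 FPKM. Of these 10, Aqp4, S100b, Aldoc and Slc1a2 were above 3/2, with ratios of 1.58 to 1.92, and 6 lay between the limits. Glul, at 83.3 and 61.8 FPKM, and Gja1, at 34.0 and 29.4 FPKM, were lower in KO. The median log2 ratio of the 10 was 0.34. The smooth muscle and mural markers, led by Tagln and Acta2, summed to 5819 FPKM in WT against 5434 FPKM in KO, and the fibroblast markers summed to 621 and 327 FPKM. The endothelial markers summed to 54.9 and 45.2 FPKM, with Cdh5 at 31.8 and 16.1 FPKM, but their median log2 ratio was 0.37, and Pecam1 was at 3.03 and 5.22 FPKM. Markers of the oligodendrocyte lineage summed to 107 and 153 FPKM. The 9 neuron markers summed to 85.4 and 108 FPKM, mostly from Tubb3 (44.7 and 59.8 FPKM) and Stmn2 (36.6 and 43.4 FPKM). Only 3 of the 9 reached 1 FPKM in WT or KO, and Rbfox3 and Snap25 did not. Of the Y chromosome, 4 genes were looked up (Ddx3y, Kdm5d, Uty and Eif2s3y). All 4 were listed in KO, with a sum of 8.44 FPKM, and none in WT. Xist, transcribed from the inactive X chromosome, was at 39.4 and 29.7 FPKM. Y transcripts were seen in the KO library only, while Xist was seen in both, so KO held transcripts of both kinds. The sex makeup of the cells and the genotype therefore cannot be told apart in these ratios.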

How the data were processed

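RNA-seq was done on cultured DG astrocytes, 1 library per genotype. According to the methods and the labels, the authors aligned paired reads of 100 bases to mm9 with TopHat 1.4.0, ran Cufflinks and deposited 1 table per library with the FPKM of each gene. The tables hold values above 0 only, 15417 rows for WT and 15457 rows for β-arr1 KO, without read counts.

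The tables were joined by symbol. The highest row was taken where a symbol had several, and a symbol without a row in a table was set to 0 there. Ratios of FPKM values, with no pseudocount, were computed for genes that reached 1 FPKM in WT or KO. The deposited starts count from 0, and 1 was added. With 1 library per genotype no p-value was computed.

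The depth, 9.54 M fragments in WT and 9.82 M in KO, was estimated from values under 0.15 FPKM, which fall on steps of 1 to 3 fragments in 69.2% and 69.9% of 416 and 435 genes with 1 annotated transcript (within 5%). Fragments per gene used the longest GENCODE transcript (NCBIM37, the assembly also called mm9), and the 95% intervals (exact Clopper-Pearson from the KO share of a gene's fragments, placed around its ratio) cover counting error only. The computation was tested on simulated data. Coding sequences came from GENCODE and were compared with the genome by blastn, with copies counted at 90% identity over 80% of the coding sequence. Computations ran in Python 3.11.15 (pandas 2.3.3, numpy 2.4.6, scipy 1.17.1).

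The 10 genes, the lists and the markers were chosen with earlier results of these data known. The text names all 10 genes, genes whose rows or annotation overlap or neighbour them, genes of the lists past the limits and the highest gene of each list. One further list is not reported here as a list. Genes named at Ssh2 and Limk1 beside these, and the single marker genes, were chosen after their values were seen. Alternatives were minimums of 0.1 and 5 FPKM or of 1 FPKM in both libraries, pseudocounts of 0.1 and 1, 3 rescalings of the libraries, summed rows, limits of 2 and 1/2 and genes with equal bounds.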

Additional observations from a re-analysis of the deposited data

How the results depend on the processing

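No paired analysis was possible because each genotype had 1 library, and leaving out a library would leave no comparison. Ssh2 was above 3/2 under every alternative tried, with ratios of 27.1 (pseudocount of 1 FPKM) to 32.0. Limk1 lay between 0.648 and 0.682, and of the 10 genes only Ssh2 was past the limits with limits of 2 and 1/2 and with a pseudocount of 1 (1 gene each, against 2). The ratio of Actb was 1.16 after rescaling to the same upper quartile. Rescaling moved all log2 ratios by at most 0.03 in either direction.

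Over all genes, 3969 were changed at a minimum of 0.1 FPKM, 1179 at 5 FPKM, 1372 with 1 FPKM in both libraries, 1163 with limits of 2 and 1/2 and 1015 among genes with equal bounds. Of the cofilin phosphatases and cofactors, 1 was changed with 1 FPKM in both libraries and 1 with equal bounds. Of the monomer and capping genes, 2 were changed at 0.1 FPKM, and 0 with 1 FPKM in both or equal bounds. Of the Arp2/3 genes, 0 were changed at 5 FPKM, with limits of 2 and 1/2, with a pseudocount of 1 and with equal bounds. Of the formins, 1 was changed at 5 FPKM, 1 with a pseudocount of 1 and 0 with limits of 2 and 1/2. Of the SRF genes, 0 were changed at 5 FPKM, with limits of 2 and 1/2 and with a pseudocount of 1. These settings test fewer or more genes or tighten the limits by construction.

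Depth limited the Slingshots and Limk1 most, with an estimated 273 to 470 fragments each in WT. The intervals take 1 length for both libraries and do not cover the differing row bounds of Actb, Cfl2, Ssh1 and Ssh3, reads with several matches, or the spread between cultures.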
